A study of Mus musculus with 11 samples.

Results

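Olig1 and Olig2, basic helix-loop-helix transcription factors that specify the oligodendrocyte lineage, were followed in mouse embryonic stem cells (ESCs) together with 7 other genes of the neural lineage, Pax6, Sox1, Nes, Neurog2, Tubb3, Zic1 and Hes5. These 9 genes were taken by symbol from the 23284 genes listed for each library. Olig1 and Olig2 were chosen by their measured levels in these libraries: both were already known to be far lower in untreated cells without Tet enzymes than in wild-type (WT) cells, so that comparison is a description and carries no test.

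RNA was sequenced in 11 libraries of ESCs grown on gelatin in serum medium with leukemia inhibitory factor. WT cells and cells with a triple knockout (TKO) of Tet1, Tet2 and Tet3 were sampled untreated (0 h) and 4 h after addition of α-amanitin at 10 µg/ml, which blocks transcription by RNA polymerase II. Each of these 4 groups had 2 libraries of total RNA depleted of ribosomal RNA. A further 3 libraries were made from polyadenylated (polyA) RNA of WT ESCs. The TKO line had been generated earlier, and its relation to the WT line and the number of clones are not given in the sources used here, so the Tet deletion and other differences between the lines cannot be told apart.

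In development, the earliest neural progenitors turn on Sox1 and Pax6 and fill with the intermediate filament protein nestin (Nes). Notch signals keep such progenitors undifferentiated through Hes5, a repressor of proneural factors such as Neurog2, and Tubb3, a β-tubulin, marks the neurons that follow. Olig2 acts in motor neuron and oligodendrocyte progenitors of the ventral spinal cord and, with its neighbour Olig1, in the oligodendrocytes that follow. Tet enzymes oxidise 5-methylcytosine to 5-hydroxymethylcytosine, in DNA at CpG dinucleotides and, as the study examines, in RNA.

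Olig2 and Olig1 lie head to tail on the plus strand of chromosome 16, 41.1 kb apart. In the mm9 build, Olig2 spans chr16:91225795-91228922 with 2 exon blocks and Olig1 spans chr16:91270014-91272184 with 1. Neither overlaps an exon of another annotated gene. The 250 bases before each annotated start are printed because the pair showed the widest differences between groups and because CpG is the dinucleotide in which the DNA substrate of Tet enzymes lies. Letters run 5′ to 3′ on the plus strand, and capitals mark CpG.
Olig2, chr16:91225545-91225794: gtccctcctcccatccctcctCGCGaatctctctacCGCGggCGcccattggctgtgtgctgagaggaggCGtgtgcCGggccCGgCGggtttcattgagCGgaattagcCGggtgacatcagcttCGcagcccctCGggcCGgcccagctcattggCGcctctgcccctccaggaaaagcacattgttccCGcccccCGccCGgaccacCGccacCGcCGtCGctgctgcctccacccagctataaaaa
Olig1, chr16:91269764-91270013: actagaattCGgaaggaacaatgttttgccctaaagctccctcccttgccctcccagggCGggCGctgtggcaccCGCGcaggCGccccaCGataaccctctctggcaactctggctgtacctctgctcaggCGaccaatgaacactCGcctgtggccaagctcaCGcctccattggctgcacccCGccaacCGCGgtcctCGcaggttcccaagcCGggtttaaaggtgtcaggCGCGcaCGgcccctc

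The Olig2 window held 22 CpG and 66.8% G or C, and the Olig1 window held 18 CpG and 63.6%. Across 22375 promoter windows of the same length the median was 8 CpG (quartiles 3 and 18), and 16.97% of windows had as many CpG as Olig2 or more, against 25.5% for Olig1. The letters TATAAA, searched on both strands, were found in the Olig2 window, as in 12.3% of all windows, and not in that of Olig1. The windows of Hes5 (32 CpG) and Zic1 (26) were richer in CpG than that of Olig2, and those of Pax6 (15), Nes (14), Tubb3 (11) and Neurog2 (8) were poorer. DNA methylation is not analysed here.

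Levels are given in TPM, the share of a library's transcripts corrected for gene length, so that genes can be compared within a library. The TPM values lie on steps of whole reads, which gave 25507874 to 29781366 reads per ribodepleted library and 72639837 to 82129168 per polyA library. Tet1, the most abundant Tet gene, was at 109 to 148 TPM in the ribodepleted WT libraries and 21.3 to 32.8 in the TKO libraries, and Tet2 was at 40.4 to 57.2 and 5.91 to 8.32. Tet3 was at 1.06 to 1.47 TPM in WT and 1.16 to 1.64 in TKO. Tet1 and Tet2 are thus lower in every TKO library, while the level of Tet3 over its whole gene was not lower in TKO. Within each time the TKO libraries lay slightly above WT for Tet3 in TPM. Its log2 differences after scaling were 4.8e-04 at 0 h and 0.053 at 4 h, and it was not called. The 2 TKO libraries at 4 h differed from each other more than the other ribodepleted replicates did, with a chi-square of 7.40 per degree of freedom over genes against 1.53 to 4.32. The summed level of 10 pluripotency markers was 4536 to 4783 TPM in the ribodepleted libraries with no marker at 0, although 3 of the 10 were called lower in TKO at 4 h and none higher, whereas 10 endoderm markers summed to at most 5.44 TPM.

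Olig1 and Olig2 were present at moderate levels only in the ribodepleted WT libraries, and were near the limit of detection in TKO libraries. Olig2 was at 19.4 and 17.1 TPM in the 2 WT libraries at 0 h and at 0.0547 and 0.0310 TPM in the 2 TKO libraries. In reads, this was 662 and 602 in WT against 2 and 1 in TKO, a 418-fold lower rate (95% interval 143 to 2031, which covers counting error only). Every WT library thus lay far above every TKO library, and the number in TKO was no more than the 3 reads that a count of 0 allows. In bulk RNA, fewer cells that express a gene and less RNA per cell cannot be told apart.

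Olig1 was at 12.3 and 11.1 TPM in WT at 0 h and at 0.338 and 0.209 TPM in TKO. The rate over 722 WT and 17 TKO reads was 42.2-fold lower (counting interval 26.2 to 72.8). Olig1 therefore lay above the floor of 3 reads in each TKO library at 0 h, with 11 and 6 reads. Olig2, the more abundant of the pair in WT at 0 h, lay below that floor in TKO, with 2 and 1 reads. On the log2(scaled TPM + 1) scale used for all comparisons across genes, where a pseudocount of 1 shrinks the change of low genes, the differences were -4.19 for Olig2 and -3.33 for Olig1.

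**Figure D1:**
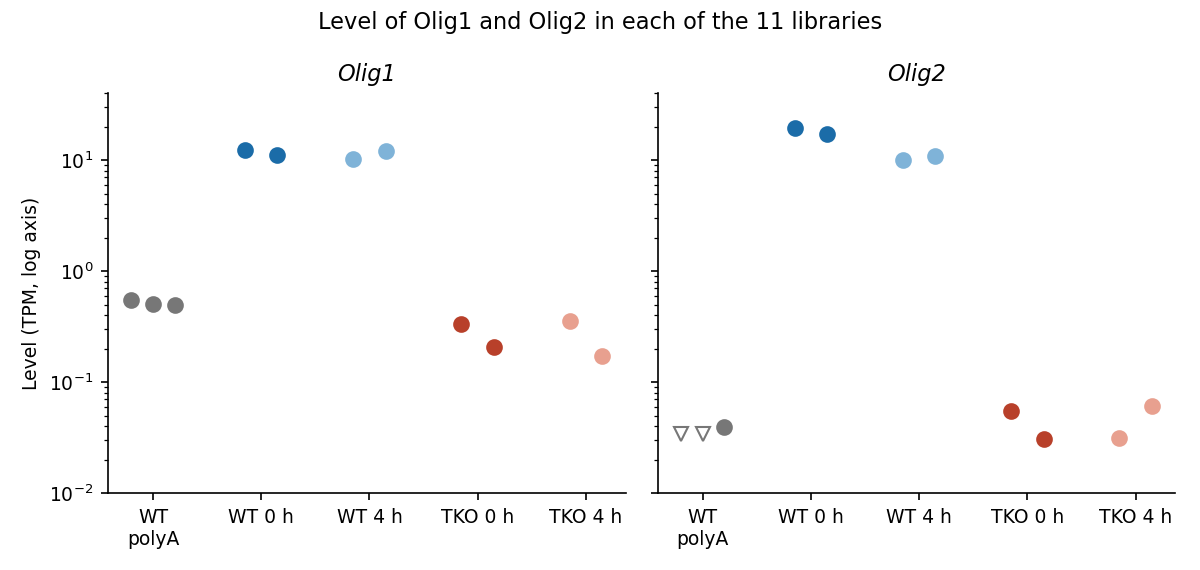
Level of Olig1 (left) and Olig2 (right) in TPM on a log axis, 1 point per library in 5 groups; open triangles mark the polyA libraries in which Olig2 had no read, drawn at the level of 3 reads. Points of the ribodepleted WT libraries lie between 10.0 and 19.4 TPM, and those of the TKO and polyA libraries lie below 0.6 TPM.

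At 4 h the picture was the same, again given as a description. In WT, Olig2 was at 10.0 and 11.04 TPM and in TKO at 0.0314 and 0.0608, which was 757 against 3 reads and a 227-fold lower rate (counting interval 77.5 to 1104). For Olig1 the WT libraries were at 10.3 and 12.0 TPM and the TKO libraries at 0.353 and 0.171, a 43.0-fold lower rate (25.9 to 77.2). The log2 differences were -3.59 for Olig2 and -3.41 for Olig1.

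The 3 polyA libraries of WT ESCs did not share the level of the ribodepleted WT libraries. Olig2 had 0, 0 and 4 reads in them (0, 0 and 0.0397 TPM), at more than the read depth of the ribodepleted libraries, and its rate was 1265-fold below that of WT at 0 h (counting interval 493 to 4650). Olig1 was at 0.549, 0.507 and 0.501 TPM, a 22.6-fold lower rate (18.7 to 27.5). On the log2 scale the polyA libraries were lower than the ribodepleted WT libraries by -4.31 for Olig2 (SE 0.077) and by -3.13 for Olig1 (SE 0.073). These values are a description with no test, since the pair was chosen for its high level in the same 2 WT libraries at 0 h. The way RNA was selected and the sequencing experiment differ together between these groups, and the sources used here do not say that both sets of libraries came from the same WT line and passage, so the parts of RNA selection, experiment and cells cannot be told apart. In the polyA libraries Olig1 was 1.87 times its level in TKO at 0 h (counting interval 1.12 to 3.31), and for Olig2 the 4 and 3 reads did not allow a direction.

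Within the WT ribodepleted libraries the balance of the pair shifted with α-amanitin. Olig2 was 1.57 and 1.55 times the level of Olig1 at 0 h and 0.970 and 0.917 times at 4 h, a ratio taken within a library and so free of scaling between libraries. Olig2 was at 17.1 to 19.4 TPM at 0 h and at 10.0 to 11.04 TPM at 4 h, with no overlap of the groups, while the ranges of Olig1 (11.1 to 12.3 and 10.3 to 12.0 TPM) overlapped. The share of all genes without such overlap was not counted. The log2 difference was -0.59 for Olig2 (SE 0.088) and 0.086 for Olig1 (SE 0.11), given with no p because the WT libraries at 0 h are those whose level chose the pair. Of the other 4 genes tested, 0 were called after α-amanitin in WT in either direction. Over all 12467 genes tested, 2.01% were called lower and 0.0882% higher. A gene is called when its adjusted p is under 0.05 and its change exceeds 1.5-fold, and Olig2, at 1.51-fold, lay just inside that fold limit. It lay below the limit under 6 of 19 alternative settings, with log2 differences of -0.74 to -0.47 over all 19. The value was -0.53 without WT 0 h replicate 1 and -0.54 without WT 4 h replicate 1.

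In TKO cells α-amanitin left the pair at the same few reads: 3 reads at 0 h and 3 at 4 h for Olig2, and 17 and 15 for Olig1. The log2 changes were 0.0088 (SE 0.088) and 0.0022 (SE 0.11). Of the 6 tested genes, 0 were called in TKO, where limma called 0.16% of all genes, and 0 of the 6 had an unadjusted p under 0.05. Olig1 and Olig2 are among the 6 only through their level in WT. At these few reads they had little room to fall, so nothing is read from their lack of a call. The difference between the treatment changes in TKO and WT was 0.60 for Olig2 (SE 0.12). This interaction was called for 0 of the 6 genes and for 0% of all genes tested, although 938 genes had an unadjusted p under 0.05. For Olig1 and Olig2 it compares a change in WT with a level in TKO that had little or no room to fall. Their lack of a call is therefore no result here either.

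Genes around the pair showed smaller genotype differences than the pair, which was itself chosen for its fall. The pseudocount of 1 TPM also caps the fall of genes that start low. In WT at 0 h the mean scaled TPM was 0.77 for Il10rb and 4.35 for Ifngr2, too low for a fall as wide as that of the pair. The annotation places 5 genes on each side, over a span of 672.0 kb, of which 8 passed the expression filter in the ribodepleted libraries. None of these 8 was called between TKO and WT at 0 h or at 4 h. For comparison, the share of all 12467 tested genes passing as higher in TKO was 10.5% untreated and 11% after α-amanitin. The share passing as lower was 5.43% and 5.82%. With only 8 neighbours, a count of 0 does not set them apart from other genes. The widest 4 h differences were -0.56 for 1110004E09Rik (SE 0.093, limma adjusted p = 9.36e-04) and 0.54 for Il10rb, a subunit of the interleukin-10 receptor (SE 0.12, adjusted p = 0.0039), both under 1.5-fold. Gcfc1, 1 of the nearest genes with a measurable level, was at 46.4 to 50.8 TPM in WT at 0 h and 49.7 to 52.5 in TKO. Ifnar2, a subunit of the type I interferon receptor and the first gene after Olig1, was at 5.43 and 6.04 TPM in WT and 5.02 and 4.93 in TKO.

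**Figure D2:**
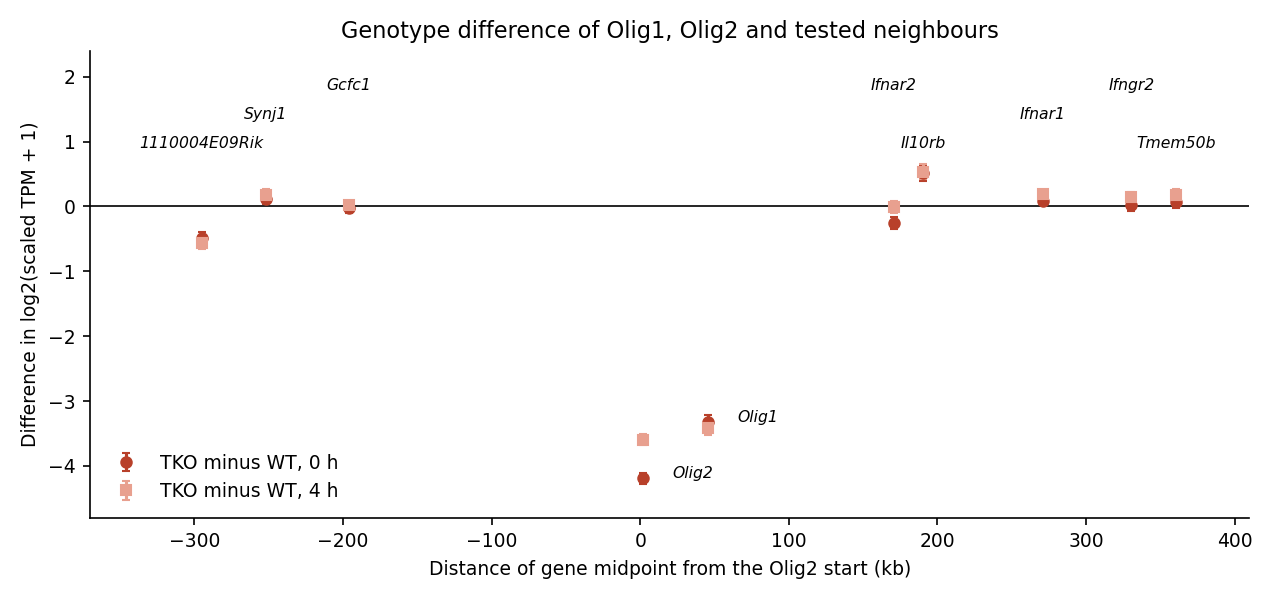
Difference between TKO and WT in log2(scaled TPM + 1) at 0 h (circles) and 4 h (squares) for Olig1, Olig2 and the 8 tested neighbours, against the distance of each gene's midpoint from the Olig2 start in kb; bars are standard errors. Olig1 and Olig2 lie between -4.19 and -3.33, and the neighbours lie between -0.56 and 0.54.

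The genes with profiles most like the pair were found from the root mean square (RMS) difference of log2 profiles over the 8 ribodepleted libraries, each profile taken relative to its own WT 0 h mean. For Olig1 these were Trh (RMS difference 0.15), Spink3 (0.40), Synrg (0.45), Tet2 (0.47) and Mid1 (0.57). For Olig2 they were Apoa2 (0.57), Olig1 (0.70), Trh (0.76), Spink3 (1.04) and Tet2 (1.07). The measure includes the pseudocount of 1 TPM, which shrinks the fall of the Olig pair more than that of an abundant gene. On that scale TKO differed from WT at 0 h by -3.33 for Olig1 and -3.29 for Trh. Without it they were less alike: the read rate of Olig1 was 42.2-fold lower, while mean Trh went from 1389 to 151 TPM. Trh, which encodes the precursor of thyrotropin-releasing hormone, was at 1379 to 1399 TPM in WT at 0 h and 144 to 157 in TKO, and its level in the polyA libraries was 206 to 225. Spink3 was also lower in the polyA libraries (22.1 to 27.8 TPM) than in ribodepleted WT cells at 0 h (53.9 and 60.4 TPM). Apoa2, by contrast, was at 45.2 to 51.1 TPM in the polyA libraries, at 18.7 and 19.8 in ribodepleted WT cells at 0 h, and at 0 and 0.290 in TKO at 0 h. The polyA libraries did not enter the measure of likeness, and the 8 points behind it fall into the same 4 groups for all of these genes.

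Nes, the filament of neural progenitors, was the opposite case, with higher levels in TKO cells. At 0 h the WT libraries were at 17.8 and 17.3 TPM and the TKO libraries at 31.8 and 33.7, and at 4 h WT was at 17.6 and 17.1 and TKO at 30.8 and 30.4. In both pairs of groups all TKO libraries lay above all WT libraries. The share of all genes so separated was not counted, here or for the genes below. At 4 h, 7404 of the 12467 genes tested had a limma adjusted p under 0.05, so a separation of the genotypes is common. At 4 h Nes was higher in TKO by 0.63 on the log2 scale (SE 0.056, limma adjusted p = 2.69e-05). It was the only 1 of the 4 tested genes other than the Olig pair that was called. The genes were chosen with earlier results of these data known, and the 4 h libraries are of the same WT and TKO cells as those at 0 h. The 4 h test of Nes is therefore not independent of its 0 h difference. At 4 h, the background over all genes was 11% called higher and 5.82% called lower. The corresponding 0 h difference of Nes was 0.77, a description. At 0 h the background over all genes was 10.5% called higher and 5.43% called lower, and nothing is read from the members' own calls there (Nes higher, Olig1 and Olig2 lower), since that comparison chose the pair. With a pseudocount of 5 TPM the 4 h change of Nes was 0.55, under the fold limit.

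Tubb3, the neuronal β-tubulin, was the most abundant of the 9 genes in all 5 groups. Its WT libraries were at 182 and 179 TPM and its TKO libraries at 142 and 143 at 0 h, against 174 and 181 for WT and 138 and 146 for TKO at 4 h. WT and TKO libraries did not overlap, but the 4 h difference of -0.47 (SE 0.056, limma adjusted p = 1.33e-04) was under 1.5-fold and Tubb3 was not called. Nes and Tubb3 thus differed in opposite directions between the genotypes, Nes higher and Tubb3 lower in TKO. This does not extend to progenitor and neuronal genes as groups. Pax6 and Sox1 were not called, and the progenitor and neuronal lists below each held genes called in both directions.

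Pax6 and Sox1, transcription factors of the early neural plate, were low in every ribodepleted library and did not pass the test between genotypes. For Pax6, WT was at 2.49 and 2.58 TPM and TKO at 2.59 and 2.85 at 0 h, and WT was at 1.82 and 1.53 and TKO at 2.18 and 1.89 at 4 h. The 4 h difference was 0.082 (SE 0.10, limma adjusted p = 0.52). After α-amanitin Pax6 was lower in WT by -0.30 on the log2 scale (SE 0.10, adjusted p = 0.049), under the fold limit, and its adjusted p was under 0.05 in 6 of 19 alternative settings, over a range of 0.025 to 0.25. Exons of Pax6 overlap those of Elp4 on the other strand, and since the strand setting of the counting is not given in the sources used here, its reads cannot be told apart from reads of that gene with certainty.

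For Sox1, WT was at 1.63 and 1.84 TPM and TKO at 1.24 and 1.54 at 0 h, and WT was at 1.21 and 1.36 and TKO at 1.42 and 1.25 at 4 h. The 4 h groups overlapped, and their difference was -0.061 (SE 0.11, limma adjusted p = 0.66). In the polyA libraries, by contrast, Sox1 was at 13.7, 13.9 and 13.6 TPM, with 2004 to 2279 reads each. It was therefore 7.93 times its level in ribodepleted WT cells at 0 h (counting interval 6.89 to 9.18), the reverse of the Olig pair.

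Neurog2, Zic1 and Hes5 had too few reads to enter the test at a mean scaled TPM above 1. Neurog2, a proneural factor, had 0 reads in all 4 ribodepleted WT libraries and 3, 0, 2 and 3 reads in the TKO libraries. No library exceeded the 3 reads that a count of 0 allows, which is 0.090 to 0.104 TPM in these 8 libraries. Pooled at 4 h, 5 reads in TKO against 0 in WT gave a rate ratio with a lower counting limit of 1.02, and both TKO libraries lay above WT. Pooled at 0 h, with 3 reads against 0, the lower limit was 0.416. Zic1, a zinc finger factor of the dorsal neural tube, was at 0.0226 to 0.199 TPM over the ribodepleted libraries with 1 to 10 reads each, and its genotypes overlapped at both times. The WT libraries of Hes5 were at 0.562 and 0.544 TPM and the TKO libraries at 0.419 and 0.178 at 0 h, with 10, 10, 8 and 3 reads. Its WT and TKO libraries did not overlap at either time in unscaled TPM. The share of all genes without overlap was not counted, and Hes5 had at most 13 reads in any ribodepleted library, so nothing is read from that separation. The rate of Hes5 in TKO at 4 h was 0.676 times that in WT, with a counting interval of 0.322 to 1.37. When genes down to 0.1 TPM were tested, the 4 h change of Hes5 was -0.26 (SE 0.10, limma adjusted p = 0.065). Exons of Zic1 overlap Zic4, and those of Hes5 overlap RP24-89N4.5, on the other strand.

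**Figure D3:**
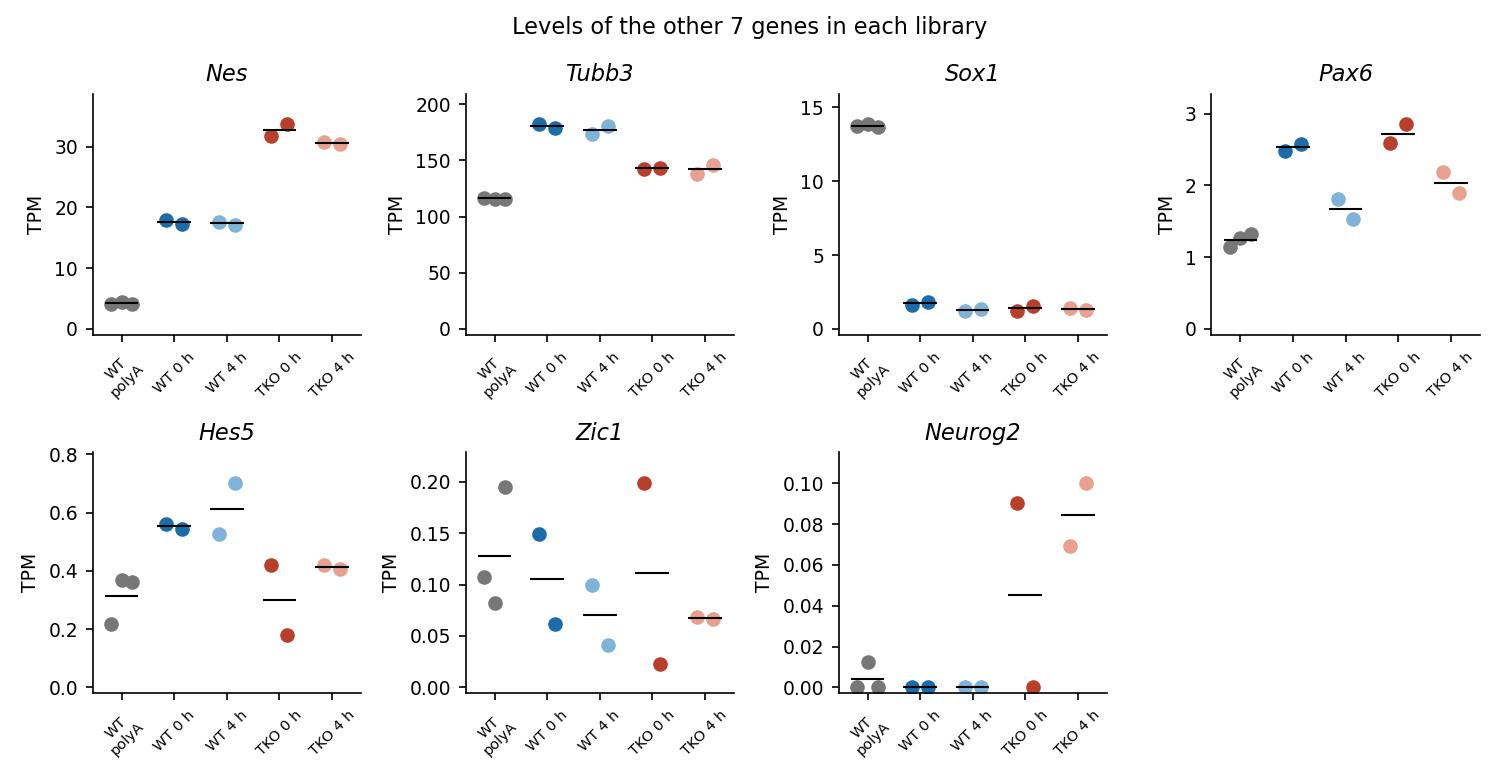
Levels of the other 7 genes in TPM, 1 panel per gene with its own linear axis from 0, 1 point per library and a bar at each group mean. Nes is at 30.4 TPM or more in every TKO library and at 17.8 or less in every other library, and Sox1 is at 13.6 TPM or more in the polyA libraries and below 2 in the others.

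The order of the levels in ribodepleted WT cells at 0 h was Tubb3 (181 ± 2.19 TPM, SD, n = 2), Olig2 (18.3 ± 1.64), Nes (17.6 ± 0.363), Olig1 (11.7 ± 0.905), Pax6 (2.53 ± 0.0646), Sox1 (1.73 ± 0.146), Hes5 (0.553 ± 0.0125), Zic1 (0.106 ± 0.0618) and Neurog2, at 0. Olig2 and Nes did not differ beyond their spread. In TKO at 0 h the order was Tubb3 (143 ± 0.919), Nes (32.7 ± 1.36), Pax6 (2.72 ± 0.186), Sox1 (1.39 ± 0.210), Hes5 (0.299 ± 0.170), Olig1 (0.273 ± 0.0912), Zic1 (0.111 ± 0.125), Neurog2 (0.0451 ± 0.0638) and Olig2 (0.0429 ± 0.0168), where Hes5 and Olig1 overlapped and so did Zic1, Neurog2 and Olig2. At 4 h in WT, Olig1 (11.2 ± 1.204) and Olig2 (10.5 ± 0.711) overlapped below Tubb3 (177 ± 5.00) and Nes (17.4 ± 0.3196), followed by Pax6 (1.67 ± 0.1996), Sox1 (1.29 ± 0.110), Hes5 (0.614 ± 0.126), Zic1 (0.0704 ± 0.0415) and Neurog2, at 0. In TKO at 4 h the order was Tubb3 (142 ± 5.61), Nes (30.6 ± 0.239), Pax6 (2.04 ± 0.206), Sox1 (1.33 ± 0.123), Hes5 (0.414 ± 0.0096), Olig1 (0.262 ± 0.129), Neurog2 (0.0846 ± 0.0221), Zic1 (0.0674 ± 0.0016) and Olig2 (0.0461 ± 0.0208), where the means of Neurog2 and Zic1 were closer than the SD of Neurog2. In the polyA libraries Sox1 (13.8 ± 0.109, n = 3) came directly after Tubb3 (116 ± 0.697), followed by Nes (4.23 ± 0.184), Pax6 (1.24 ± 0.0980), Olig1 (0.519 ± 0.0259), Hes5 (0.315 ± 0.0847), Zic1 (0.128 ± 0.0591), Olig2 (0.0132 ± 0.0229) and Neurog2 (0.0041 ± 0.0072), of which the last pair overlapped.

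Of the other 4 tested genes, 1 was called higher and 3 lower in the polyA than in the ribodepleted WT libraries, in a fit where 18.7% of 12481 genes were called higher and 16.4% lower. Nes was lower by -1.92 (SE 0.055, limma adjusted p = 1.35e-08), with 4.14, 4.44 and 4.10 TPM in the polyA libraries. Tubb3, at 117, 116 and 115 TPM, was lower by -0.74 (SE 0.034, adjusted p = 1.89e-07). Pax6, at 1.14, 1.27 and 1.33 TPM, was lower by -0.72 (SE 0.083, adjusted p = 4.72e-05). Sox1 was higher by 2.36 (SE 0.064, adjusted p = 1.01e-08). The polyA and ribodepleted WT libraries at 0 h did not overlap for any of these 4 genes. The share of all genes without overlap was not counted, but 10105 of the 12481 had a limma adjusted p under 0.05. A separation of these groups is therefore common and not particular to these genes. For Nes, Tubb3, Pax6 and Sox1 the polyA difference was larger in size than the genotype difference at either time. The difference between the comparisons was not tested.

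**Figure D4:**
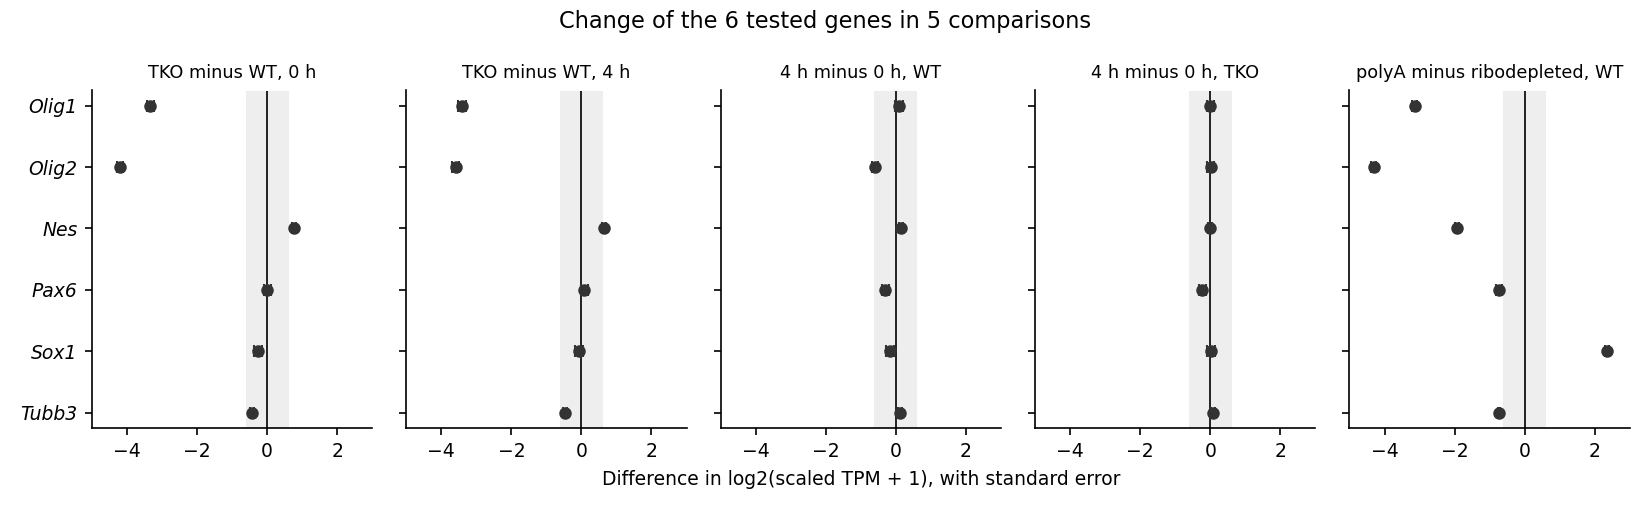
Difference in log2(scaled TPM + 1) with its standard error for the 6 tested genes in 5 comparisons; the grey band marks changes under 1.5-fold. The points of Olig1 and Olig2 lie at -3.33 or lower between genotypes and at -3.13 or lower between polyA and ribodepleted WT libraries, and all points for α-amanitin in TKO lie within the band.

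Further neural genes were examined in 4 lists that hold none of the 9 genes, in the comparison of TKO with WT at 4 h. Of 15 tested neural progenitor genes (34 listed in the files), 5 rose and 1 fell in TKO, and the median difference was 0.37 against -0.0051 over all genes. The risers included Prom1, which encodes the membrane protein prominin, at 3.94 and 3.99 TPM in WT and 13.3 and 13.2 in TKO (log2 1.39, SE 0.079, limma adjusted p = 2.88e-06). Zic2, a zinc finger factor related to Zic1, rose by 1.08 and Hesx1, a homeobox gene of the anterior forebrain, by 0.92. Gbx2, a homeobox gene of the midbrain and hindbrain boundary that ESCs also express, fell by 1.31 on the log2 scale, from 19.0 and 21.6 TPM to 10.3 and 7.003 TPM. Vim, which encodes the filament protein vimentin and was the most abundant gene of the list, differed by 0.092 (adjusted p = 0.38).

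In the Notch pathway, 4 of 20 tested genes rose, 1 fell and 15 were not called, with a median of 0.015. The ligand gene Dll1 rose by 1.03 (SE 0.10, limma adjusted p = 5.89e-05), from 0.702 and 0.843 TPM in WT to 3.01 and 2.59 in TKO. The receptor gene Notch3 rose by 0.85 and Hes6, a relative of Hes5, by 0.84. Dtx1, which encodes the ubiquitin ligase deltex, fell by 0.69, and Rbpj, the DNA-binding partner of Notch, differed by -0.022 (adjusted p = 0.70). After α-amanitin in WT, Hes1, a repressor of the Hes5 family, was the only gene of the 4 lists that was called. It changed from 20.8 and 20.1 TPM to 10.6 and 13.2 TPM, a log2 change of -0.59 (SE 0.11, adjusted p = 0.0079), at the same edge of the fold limit as Olig2. Over 19 alternative settings the call of Hes1 was lost in 5, with a log2 change of -0.46 and an adjusted p of 0.061 without WT 4 h replicate 1.

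Of 17 tested neuronal genes 3 rose and 2 fell, with a median of 0.15. Gap43, a growth cone protein gene, rose by 1.07 (SE 0.061, limma adjusted p = 2.91e-06), from 11.4 and 12.6 TPM in WT to 29.5 and 29.0 in TKO. Nefm, which encodes a neurofilament subunit, rose by 0.81 and the zinc finger gene Insm1 by 0.71. Ina, which encodes the neuronal filament protein α-internexin, fell by 0.89, from 40.8 and 41.2 TPM to 24.3 and 23.97 TPM. Dpysl3, of a family that acts in axon growth, fell by 0.69, and Tubb2b, another β-tubulin gene and the most abundant of the list, changed by -0.50 (adjusted p = 6.40e-05), under the fold limit like Tubb3. Genes that encode filament or tubulin proteins of neurons were therefore found in both directions.

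In the list of glial and Hedgehog pathway genes, the closest to Olig1 and Olig2 by lineage, 4 of 17 tested genes rose and 3 fell, with a median of 0.11. Nkx6-2, a homeobox gene of ventral progenitors and oligodendrocytes, fell by 1.81 on the log2 scale (SE 0.13, limma adjusted p = 9.31e-06), from 6.41 and 6.10 TPM in WT to 1.08 and 1.48 in TKO. Among myelin genes, Mobp fell by 1.02, while Mbp rose by 0.95 from 0.646 and 0.768 TPM to 2.73 and 2.21 TPM. Slc1a3, a glial glutamate transporter gene, fell by 0.70. Of the Hedgehog genes Gli3 rose by 0.75 and Hhip by 0.74, and Gli1, the most abundant gene of the list, changed by -0.26 (adjusted p = 0.0064), under the fold limit. Oligodendrocyte genes were thus called in both directions. None of the 17 fell as far as Olig1 or Olig2 did, but that pair was chosen for its fall. The pseudocount of 1 TPM also caps the fall of genes that start low, such as Mobp (mean scaled TPM 2.08 in WT at 4 h). Nothing is therefore read from the rank of the pair.

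**Figure D5:**
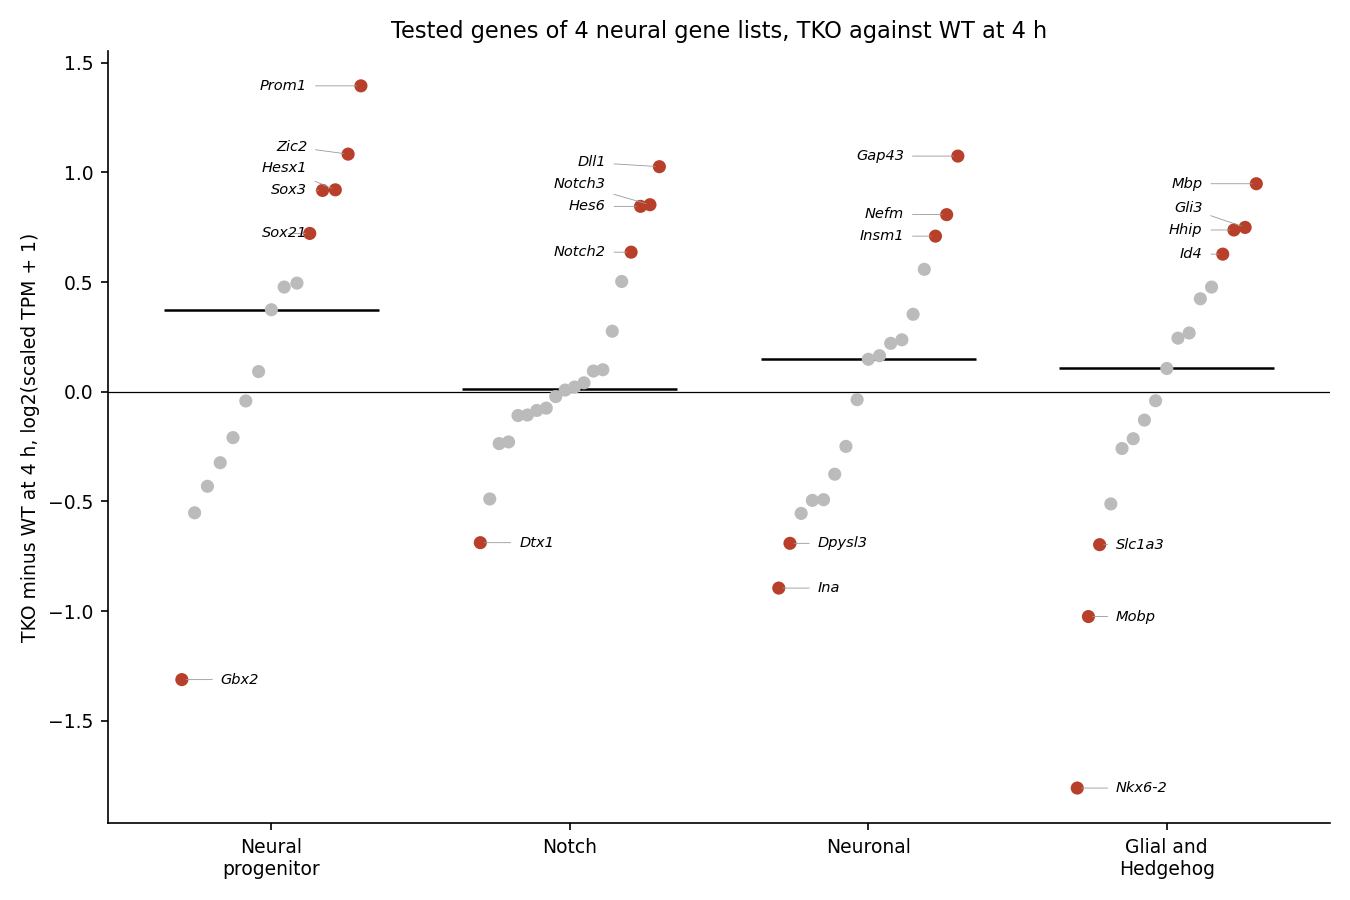
Difference between TKO and WT at 4 h in log2(scaled TPM + 1) for the tested genes of 4 neural lists, ordered by size within each list; called genes are red and named, other genes are grey, and black bars are the list medians (0.37, 0.015, 0.15 and 0.11 from left to right). Called genes lie on both sides of 0 in every list.

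Set beside the 11% of all genes called higher and 5.82% called lower, the shares were 33.3% and 6.67% for neural progenitor genes, 20% and 5% for Notch genes, 17.6% and 11.8% for neuronal genes and 23.5% and 17.6% for glial genes, over 15 to 20 genes each, so that 1 gene is at least 5% of a list. Without size factors the medians of all genes moved, to 0.14 between genotypes at 4 h and to -0.11 for α-amanitin in WT, and the 4 h calls over all genes, 1375 up and 725 down, became 1940 and 444. With quantile normalisation they became 1047 and 871.

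Markers of pluripotency and of other cell types moved with the genotype as well. Of the 10 pluripotency markers, 3 were called lower in TKO at 4 h and 0 higher. They were, with the WT mean before the TKO mean (SD, n = 2), Zfp42 (363 ± 14.0 and 104 ± 15.7 TPM), Klf4 (35.0 ± 6.995 and 19.5 ± 2.76) and Esrrb (170 ± 5.42 and 111 ± 2.35). Of the 6 primed epiblast markers, 2 were called higher and 0 lower, Fgf5 by 0.90 and Sfrp2 by 0.82 on the log2 scale. The 4 not called went both ways, Pou3f1 by 0.53, Dnmt3b by -0.49, Foxd3 by -0.50 and Otx2 by -0.26. The 6 together summed to 286 to 291 TPM in TKO and 342 to 352 in WT at 4 h, so the primed markers did not move as 1 set. All 5 tested trophectoderm markers were called higher in TKO at 4 h, and the 7 markers in the files summed to 1057 to 1168 TPM in TKO and 161 to 179 in WT at 4 h, with none at 0 in all libraries of a group. At 0 h the sums were 1046 to 1068 in TKO and 140 to 175 in WT. Krt8 and Krt18 made up most of the sum, at means of 560 and 503 TPM in TKO and 89.0 and 75.9 in WT at 4 h. Cdx2 (0.737 in TKO and 0.444 in WT) and Elf5 (0.201 and 0.0902) were too low to be tested. Hand1, among the 5 called, is also in the mesoderm list, as its 1 marker called higher. The 8 fibroblast markers summed to 13.2 to 15.1 TPM in TKO and 9.20 to 11.5 in ribodepleted WT libraries, with 1 of 4 tested called higher, and the 8 mesoderm markers to 8.57 to 10.7 and 4.77 to 6.35, with 1 of 3 tested called higher and 1 lower. Their part in the differences of the neural genes was not tested. The sums of the 33 glial genes, 177 to 200 TPM in WT and 201 to 203 in TKO at 0 h, and of the 34 neural progenitor genes, 321 to 328 and 337 to 339, did not drop in TKO as the Olig pair did.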

How the data were processed

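Gene expression was measured by RNA sequencing in mouse ESCs. The titles gave each of the 11 libraries its group and number. The authors deposited 1 TPM value per gene and library, which they computed from HTSeq gene counts after quality filtering with AfterQC, removal of ribosomal and transfer RNA reads with Bowtie2, trimming with Trimmomatic and alignment to mm9 by STAR, using RefSeq genes. The versions of these tools, and whether counting used strand, are not given in the sources used here. TPM values are relative, so a change shared by all transcripts cannot be seen in them.

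Whole reads were recovered from the steps of the TPM values for 100% of genes, apart from any divisor that a gene's libraries share. They gave the depth, the counting intervals (95%, exact) and the floor of 3 reads, all of which cover counting error only. Size factors (median of ratios) scaled the TPM values, which were then modelled as log2(scaled TPM + 1) by limma 3.58.1 under R 4.3.3 (lmFit, eBayes with a trend), without a replicate block, for genes with a mean scaled TPM above 1. The 8 ribodepleted libraries formed one fit (12467 genes), and the 3 polyA and the 2 WT 0 h libraries another (12481 genes). Benjamini-Hochberg adjustment was made over all genes tested, and all tests were two-sided. Calls needed an adjusted p under 0.05 and a change over 1.5-fold. Of the 9 genes 6 were tested, Olig1 and Olig2 only because of their level in WT, and comparisons of that pair that rest on the WT 0 h libraries are given without a p.

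The 9 genes and the gene lists were chosen with earlier results of these data known, and the lists are hand-made. Besides the 9 genes, the text names Tet1 to Tet3, the 5 tested genes with the profile nearest to Olig1 and to Olig2, the 3 called genes of each list that rose most and the 3 that fell most at 4 h, the most abundant gene of each list in WT at 0 h, genes of the lists called after α-amanitin, and 5 neighbours on each side of the Olig pair. The pluripotency, primed epiblast, trophectoderm and mesoderm markers in the text were named after their values were seen. Positions come from the GENCODE annotation of NCBIM37 (mm9) by symbol, which matched 8 of the 9 genes, and sequences from that genome. The study describes its α-amanitin RNA sequencing as done in biological duplicate. Nothing in the labels says that replicates came from separate cultures. The p-values measure the spread between libraries, part of which may be technical. In every pair of replicates the chi-square of the reads was at least 1.53 per degree of freedom, so each library was counted once. Alternatives were other scalings, a filter at 0.1 TPM and none, pseudocounts of 0.1 and 5 TPM, a replicate block, no variance trend, limma voom on recovered reads, no fold threshold, a fit of only the groups compared, and leaving out each library.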

Additional observations from a re-analysis of the deposited data

How the results depend on the processing

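The counts of called genes among the 9 include Olig1 and Olig2, which are given without a test. These counts stayed within 1.5 times the reported count under the alternatives run, except after α-amanitin in WT. There the count of 1 (Olig2, given without a test) became 0 with quantile normalisation, a pseudocount of 5 TPM, a filter at 0.1 TPM and no filter, and 2 with no fold threshold. With 1 library left out it ranged from 0 to 1, and was 0 without WT 0 h replicate 1 and without WT 4 h replicate 1. With a pseudocount of 5 TPM and with no fold threshold, the 4 h counts were 3 and 12 for neural progenitor genes, 2 and 9 for Notch genes, 2 and 13 for neuronal genes and 1 and 12 for glial genes. With 1 library left out, Notch genes numbered 3 to 6, with 3 without TKO 4 h replicate 1. The higher pseudocount shrinks changes by construction, and dropping the fold threshold adds small changes; the other causes were not tested.

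Of single genes, changes near 0 turned sign. Without size factors the values were 0.030 for Sox1 and 0.13 for Rbpj between genotypes at 4 h, -0.061 for Olig1, -0.016 for Nes and -0.026 for Tubb3 after α-amanitin in WT, -0.015 for Olig1 in TKO, and 0.046 for the Olig1 interaction. With quantile normalisation they were -0.12 for Pax6 and 0.081 for Rbpj at 4 h, -0.022 for Tubb3 after α-amanitin in WT, and 0.037 for the Olig1 interaction. Olig1 after α-amanitin in TKO was -0.0051 with a pseudocount of 0.1 TPM and -0.013 with voom. With 1 library left out the ranges were -0.018 to 0.17 for Pax6 and -0.052 to 0.016 for Rbpj at 4 h, -0.092 to 0.097 for Olig1 and -0.013 to 0.031 for Olig2 after α-amanitin in TKO, and -0.17 to 0.011 for the Olig1 interaction.

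Deviations of same-numbered libraries correlated at -0.044 to 0.12, so the numbers were not taken to pair libraries. With the replicate block the counts were 3 between genotypes at each time, 1 and 0 after α-amanitin in WT and TKO, 0 for the interaction and 6 for polyA RNA, and 6, 5, 5 and 7 for the 4 lists, and it changed none of these counts. Olig1 and Olig2 are among the 3 and the 6, and Olig2 is the 1. The pair was chosen for its levels in these libraries, so its part in the counts is no support. Over all genes the block gave 1373 called higher and 731 lower between genotypes at 4 h. Depth limits Neurog2, Zic1 and Hes5 in all groups and Olig1 and Olig2 in TKO.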
